A study of Mus musculus with 15 samples.

Results

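The genes described here are 41 components of phosphoinositide 3-kinase (PI3K), Akt and mTOR signaling, chosen by name and not by their values. They comprise PI3K subunits, Akt kinases and their activator, the mTOR complexes, the TSC brake and its effectors, Akt substrates, receptors with their adaptors, lipid and protein phosphatases, and adhesion kinases. An annotated transcript was listed in the files of all 15 mice for 40 of the 41, out of 13933 genes with such a transcript, and 38 passed the filter of 1 FPKM or more in 5 or more mice that left 12366 genes for testing. RNA-seq had been performed on renal tissue of male wild-type C57BL/6 mice in 3 groups of 5. Control mice received saline by subcutaneous osmotic pump and water by gavage. Ang II mice received angiotensin II at 500 ng/kg/min by pump for 28 days and water by gavage, a standard way of raising blood pressure in mice. Ang II + QDG mice received the same infusion and Qingda granule, a Chinese herbal formula, at 1.145 g/kg/day by gavage. No group received QDG without Ang II, and each kidney sample was whole tissue, so fewer cells of a type and less RNA per cell cannot be told apart.

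PI3K is a lipid kinase that growth factor receptors and their adaptors switch on at the plasma membrane, and the lipid it makes draws Akt to Pdpk1, which phosphorylates it. Active Akt restrains Gsk3 kinases, FoxO transcription factors and the Tsc1-Tsc2 complex, and release of the small GTPase Rheb from that complex turns on the mTOR complex mTORC1, a driver of protein synthesis and cell growth. These steps are controlled mainly by phosphorylation, which mRNA levels do not show. In the kidney the pathway is known for its part in tubular transport, cell survival and growth of the organ.

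The total implied by the deposited values was 68923401 to 81329547 reads or fragments per mouse. The implied median per mouse was 5964 reads for Akt1 and 399 for Tsc1, a low member. Tubule markers were abundant in every mouse. Several library features differed between groups. The share of FPKM on mitochondrial transcripts was 19.4% ± 0.801 (SD, n = 5) in Control, 15.6% ± 0.252 with Ang II alone and 18.3% ± 1.41 in Ang II + QDG, and both differences from Ang II had an adjusted p = 0.0119 (exact two-sided permutation test over mice, adjusted over 3 comparisons). The summed FPKM of all 4 podocyte markers was 76.6 to 85.7 in Control, 103 to 130 with Ang II alone and 100.4 to 127 with QDG added. In the same order, 6 smooth muscle and fibroblast markers summed to 40.2 to 57.5, 50.7 to 112 and 60.6 to 72.1 FPKM, and 5 hemoglobin and erythroid genes to 545 to 1362, 1115 to 1943 and 1557 to 2818 FPKM. None of these 3 sums overlapped between Control and Ang II + QDG. The summed FPKM of 8 proximal tubule markers was 5316 to 7348 in Ang II and 7889 to 12146 in Ang II + QDG, with no overlap, and 5272 to 16645 in Control. Kap, 1 of the 8, had 1557 to 4111 FPKM in Ang II and 3730 to 9151 with QDG added, and the other 7 markers together had 3236 to 4641 and 2995 to 4159. The part of these differences in the values below was not tested. Gene values are sums of the transcripts listed for all 15 mice, and 7 members (Akt2, Creb1, Ilk, Inpp4b, Mlst8, Pik3c2a and Pik3c3) had further annotated transcripts, 9 in all, listed only for Control mice or only for the infused mice. Those transcripts moved several of these members, and values with them are given below for Akt2, Creb1, Ilk, Mlst8 and Pik3c3. In those values a transcript not listed for a mouse counted as 0. Each such transcript can therefore shift a difference from Control in a fixed direction only. Control mouse 2 stood apart from the other Control mice in Gsk3a, Itgb1, Irs1 and Igf1.

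In Ang II vs. Control, Akt1 rose and no other member passed an adjusted p under 0.05 (limma's moderated test, adjusted over all 12366 genes). This was 1 of 38 members higher and 0 lower, where 4.95% of all genes tested were higher and 0.995% lower. At an unadjusted p under 0.05 there were 11 of 38 members (28.9%), 10 of them higher, beside 22.7% of all genes. With all listed transcripts there were 9 (23.7%), beside 23.3%, without Akt2 and Ilk. No member's gene sum had a 2-fold change with an unadjusted p under 0.05, which 1.04% of all genes had. The study applied that threshold to single transcripts. Member transcripts that met it here included ENSMUST00000071739 (−1.26) and ENSMUST00000206654 (1.01) of Gsk3a. Others were ENSMUST00000130469 of Rps6kb2 (1.34) and ENSMUST00000150335 of Akt1s1 (1.37). By gene sum, no member had groups that did not overlap, beside 7.92% of all genes. The log2 fold change was above 0 for 29 of 38 members (76.3%), beside 64.8% of all genes, with a median of 0.12 beside 0.083. After quantile normalization, which like median scaling sets the mice to a common centre, the share of members above 0 was 55.3%, beside 48.9% of all genes, and after median scaling it was 55.3% beside 48.7%. The medians were then 0.023 beside −0.0061 and 0.026 beside −0.0079.

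In Ang II + QDG against Ang II, called the QDG comparison here, Deptor rose and no other member passed. This was 1 of 38 members higher and 0 lower, beside 0.526% and 1.29% of all genes. At an unadjusted p under 0.05 there were 5 of 38 members (13.2%), 3 higher and 2 lower, beside 16.4% of all genes, and with all listed transcripts 4 (10.5%), without Ilk, beside 16.6%. By gene sum, Pik3ca was the only member with at least a 2-fold change at an unadjusted p under 0.05, beside 0.817% of all genes. Deptor was the only one whose groups did not overlap, beside 5.00%. The log2 fold change was above 0 for 17 of 38 members (44.7%), beside 46.3% of all genes, with a median of −0.047 beside −0.018. Between Ang II + QDG and Control no member passed the adjusted threshold by limma, where 0.0970% of all genes were higher and 0.0323% lower. At an unadjusted p under 0.05 there were 5 members, Akt1, Foxo3, Pik3r2 and Rictor higher and Met lower, beside 14.4% of all genes. With all listed transcripts Akt2 (0.40) and Mlst8 (0.80) made 7, beside 15.9% of all genes, and Creb1 went from 0.46 to −0.15. The added transcript of Mlst8 is listed only for infused mice and that of Creb1 only for Control mice. Counted as 0 elsewhere, they fixed the direction of these shifts. Both comparisons with Ang II use the same 5 Ang II mice, so their values are given side by side and not related to each other.

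**Figure D1:**
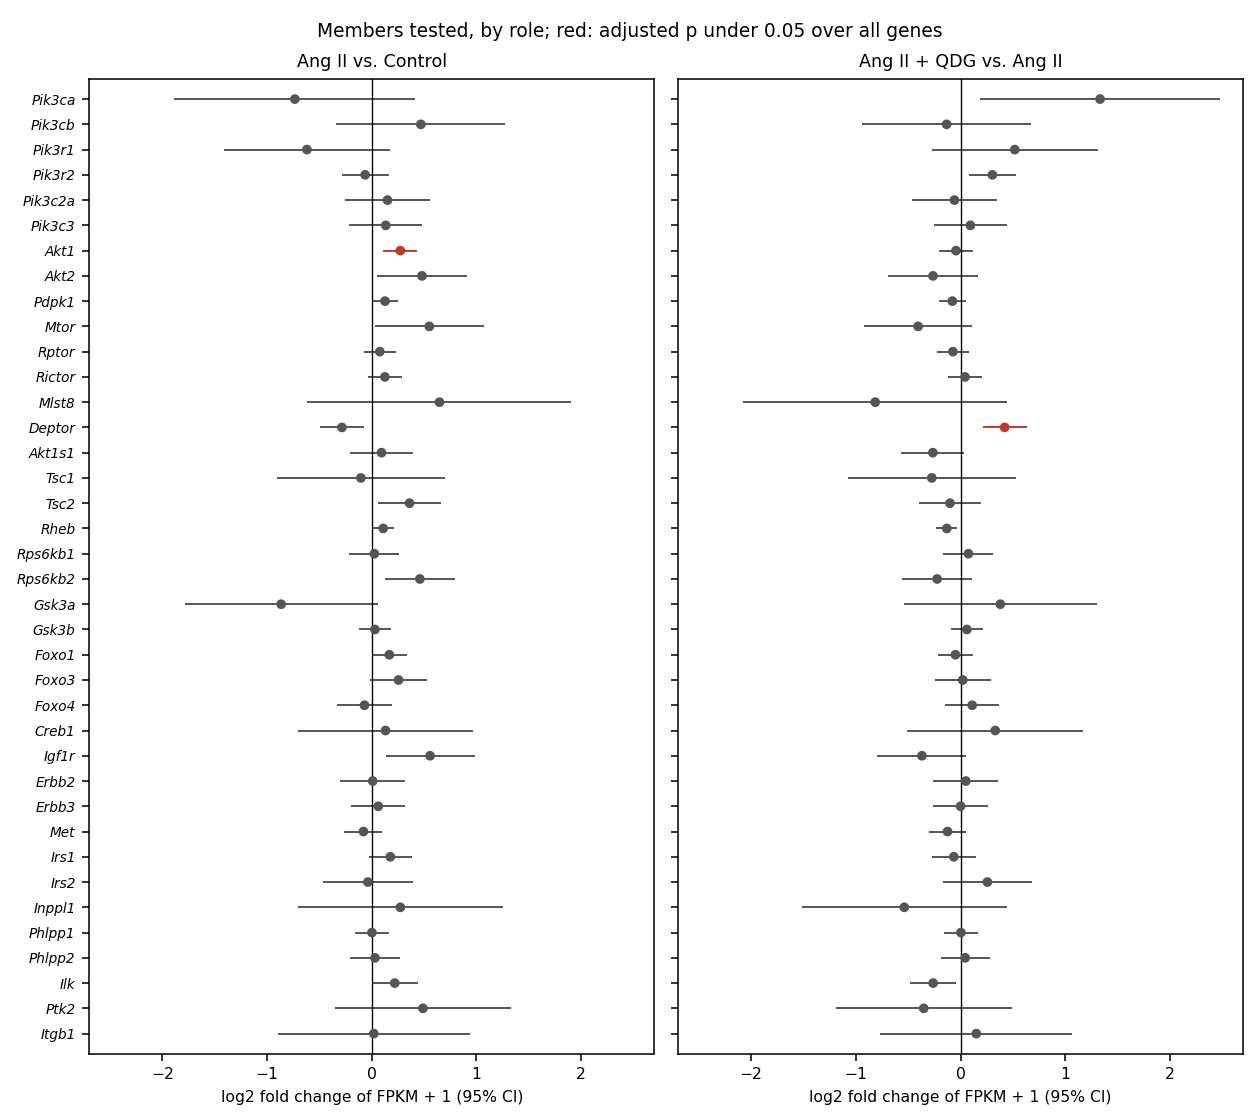
Log2 fold change of FPKM + 1 with its 95% confidence interval for the 38 members tested, with Ang II vs. Control on the left and the QDG comparison on the right, with members ordered by role and red marking an adjusted p under 0.05 over all genes. Akt1 (0.27) on the left and Deptor (0.42) on the right are red, and the intervals of Pik3ca, Mlst8, Gsk3a, Inppl1 and Itgb1 are wide.

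Among the Akt kinases, the hub through which PI3K acts, Akt1 had more mRNA in Ang II than in Control. FPKM is per kilobase of transcript, so levels of the summed transcripts can be compared between genes. Reads on transcripts left out of the sums are not in these levels. Akt1 (ENSMUSG00000001729, chromosome 12, 112653821 to 112674276, minus strand, GRCm38) was at 24.9, 31.7, 25.6, 25.03 and 26.9 FPKM in the 5 Control mice, at 36.6, 33.2, 29.5, 31.7 and 31.9 FPKM with Ang II alone and at 28.9, 32.9, 31.5, 33.8 and 30.5 FPKM in Ang II + QDG. Control mouse 2 lay within the range of Ang II, and the other 4 Control mice lay below every Ang II mouse. The means were 26.8 ± 2.84 FPKM in Control, against 32.6 ± 2.62 with Ang II, a log2 fold change of 0.27 (SE 0.0755, adjusted p = 0.0494). Ang II + QDG, at 31.5 ± 1.96 FPKM, differed from Ang II by −0.044 (95% CI −0.21 to 0.12, adjusted p = 0.829) and from Control by 0.23 (adjusted p = 0.192). The adjusted p of Akt1 in Ang II vs. Control lay at the threshold. It was 0.0150 without Control mouse 2 and 0.0413 without Ang II mouse 3, and 0.0505 to 0.114 without any of the other 13 mice. With quantile normalization the change was 0.19 (adjusted p = 0.159).

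Akt2, the form most tied to insulin signaling, varied more between mice. Its values were 8.16, 16.6, 13.4, 16.8 and 17.8 FPKM in Control, 23.5, 18.6, 16.7, 20.5 and 21.2 with Ang II alone and 18.4, 20.5, 11.4, 19.9 and 14.1 in Ang II + QDG. The lowest mouse was in Control and the highest in Ang II, and all groups overlapped. On the log2 scale the change was 0.48 in Ang II vs. Control (SE 0.199, adjusted p = 0.169) and −0.26 in the QDG comparison (adjusted p = 0.554). Another coding transcript of Akt2, listed only for the infused mice, was at 0 in all of them but Ang II + QDG mice 3 and 5, where it was at 12.9 and 8.28 FPKM. The coding transcripts ENSMUST00000108342 and ENSMUST00000108343 of Akt2 were listed only for Control mice, at up to 1.85 and 3.34 FPKM. With all listed transcripts the changes of Akt2 were 0.34 in Ang II vs. Control (adjusted p = 0.246) and 0.069 in the QDG comparison (adjusted p = 0.884). The sign of the second thus turned. Pdpk1, the kinase that activates Akt, was among the steadiest members, at 9.49 to 11.5 FPKM over all 15 mice. The difference from Control was 0.13 in log2 units (adjusted p = 0.219), and that with QDG −0.079 (adjusted p = 0.546).

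**Figure D2:**
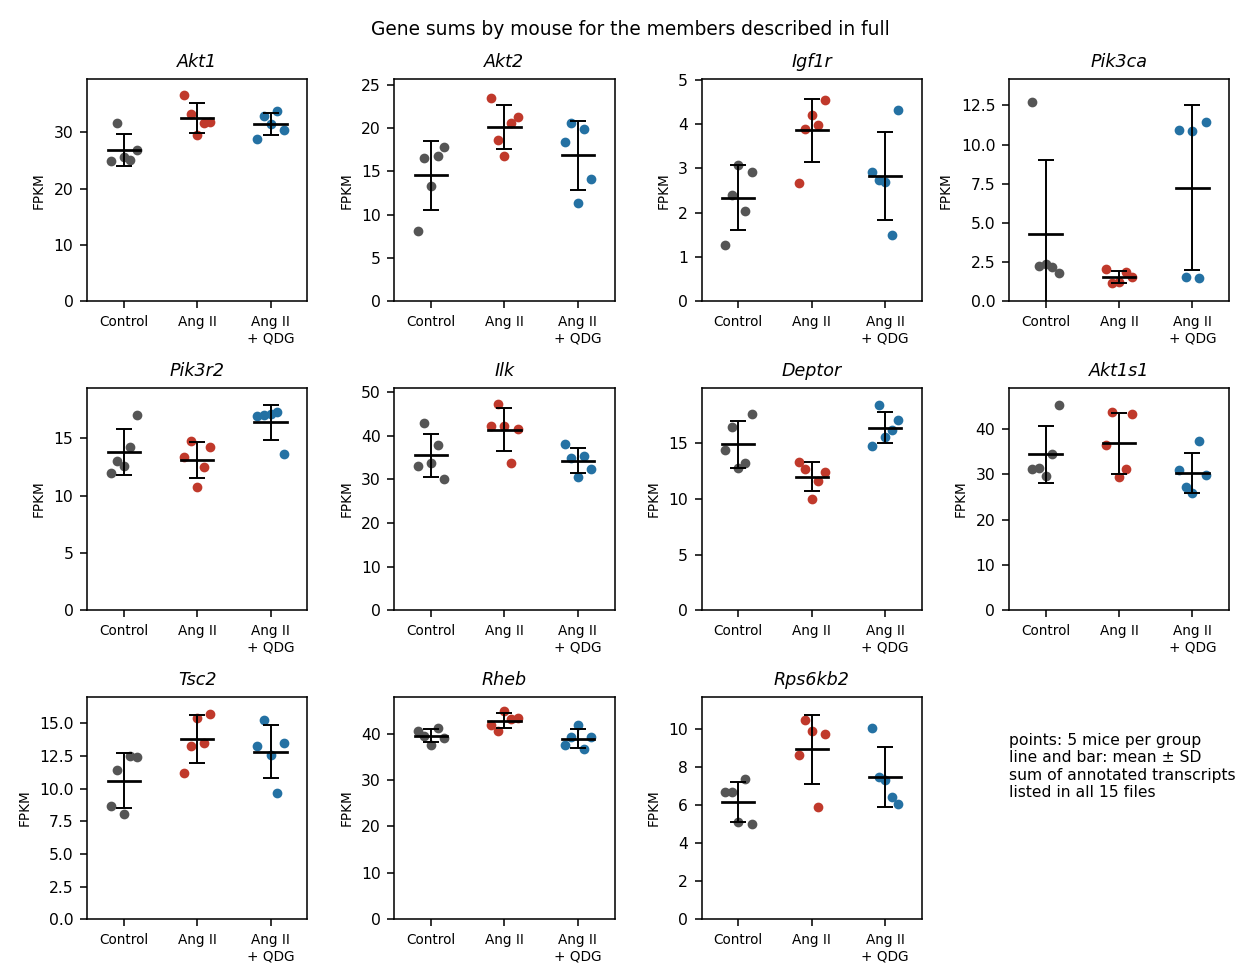
FPKM by mouse for the 11 members described in full, with 5 mice per group as points and the mean ± SD as a line with a bar; each panel has its own axis from 0. Deptor is lower in Ang II than in Ang II + QDG in every mouse, 4 of 5 Control mice lie below all Ang II mice for Akt1, and Pik3ca falls into a high set of 10.9 to 12.7 FPKM and a low set of 1.18 to 2.41 FPKM.

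Among the PI3K subunits no member passed in either comparison, and the catalytic and regulatory genes varied widely between mice of the same group. Pik3ca, the catalytic subunit p110-alpha, was at 12.7, 2.28, 2.41, 2.22 and 1.83 FPKM in Control, 2.06, 1.18, 1.23, 1.88 and 1.57 with Ang II alone and 10.9, 1.55, 10.9, 1.48 and 11.4 FPKM in Ang II + QDG. It was high in Control mouse 1 and in Ang II + QDG mice 1, 3 and 5, and low in the other 11 mice, with no value between. Between the Ang II groups the log2 fold change was 1.33 (SE 0.536, adjusted p = 0.224), and in Ang II vs. Control it was −0.74 (SE 0.536, adjusted p = 0.453). Only 1 annotated transcript of Pik3ca was listed, so a gene sum here is that transcript.

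Pik3r2, the regulatory subunit p85-beta, was at 11.9, 13.05, 12.6, 14.3 and 17.04 FPKM in Control, 13.3, 14.7, 10.7, 12.5 and 14.3 with Ang II alone and 16.9, 17.01, 17.1, 17.3 and 13.6 FPKM in Ang II + QDG. In Ang II + QDG, 4 of 5 mice lay above every Ang II mouse and mouse 5 lay within their range. For Pik3r2 the log2 fold change was 0.30 in the QDG comparison (SE 0.105, adjusted p = 0.159), −0.064 in Ang II vs. Control and 0.24 between Ang II + QDG and Control (adjusted p = 0.314). Pik3r1, which encodes the main regulatory subunit, was near 1.8 FPKM in Ang II mice 1 and 3 and at 3.15 FPKM in Ang II + QDG mouse 3, while the other 12 mice had 6.31 to 9.49 FPKM. Pik3cb, the p110-beta subunit, ranged from 1.24 to 7.08 FPKM within Control alone. The class II kinase Pik3c2a (13.4 to 25.6 FPKM) and the class III kinase Pik3c3, which acts in autophagy (4.35 to 10.1 FPKM), had log2 fold changes of 0.15 and 0.13 in Ang II vs. Control and of −0.059 and 0.093 in the QDG comparison, none past the threshold. The 4.35 FPKM of Pik3c3 was Control mouse 2, which had another 7.13 FPKM on a coding transcript listed only for Control mice. With all listed transcripts Pik3c3 was at 11.5 FPKM in that mouse, the highest of Control, and its log2 fold change in Ang II vs. Control was −0.11 (adjusted p = 0.453).

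Within the mTOR complexes, Deptor, a protein that binds mTOR and inhibits it, was the member that differed between the Ang II groups. Deptor (ENSMUSG00000022419, chromosome 15, 55112317 to 55259271, plus strand) was at 14.4, 16.4, 12.8, 13.2 and 17.6 FPKM in Control, 13.3, 12.7, 10.002, 11.6 and 12.4 with Ang II alone and 14.8, 18.4, 15.5, 16.1 and 17.01 FPKM in Ang II + QDG. Every Ang II + QDG mouse lay above every Ang II mouse, and the Control mice overlapped with both groups. The means were 14.9 ± 2.08, 11.99 ± 1.27 and 16.4 ± 1.41 FPKM in that order. In the QDG comparison the log2 fold change was 0.42 (SE 0.0976, 95% CI 0.21 to 0.63, adjusted p = 0.0448). In Ang II vs. Control it was −0.29 (SE 0.0976, adjusted p = 0.0995), and with quantile normalization −0.37 (adjusted p = 0.0355), which made Deptor in place of Akt1 the member called in that comparison. Ang II + QDG differed from Control by 0.14 (adjusted p = 0.556). The adjusted p for the QDG comparison was 0.0368 to 0.0490 without Control mouse 3 or 5 or Ang II + QDG mouse 1, and 0.0501 to 0.113 without any of the other 12 mice. Exons of Deptor overlap Gm9920 on the other strand.

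The kinase Mtor itself was at 11.1, 10.3, 7.42, 13.6 and 18.5 FPKM in Control, 18.7, 22.3, 15.97, 11.01 and 22.4 with Ang II alone and 11.5, 12.96, 10.5, 11.3 and 20.7 in Ang II + QDG. Control mouse 5 and Ang II + QDG mouse 5 lay within the range of the other 4 Ang II mice, and Ang II mouse 4 lay with the lower mice of those groups. This gave a log2 fold change of 0.55 in Ang II vs. Control (SE 0.241, adjusted p = 0.192) and −0.41 in the QDG comparison (adjusted p = 0.434). Rptor and Rictor, the scaffolds that define mTORC1 and mTORC2, varied little, at 6.30 to 7.73 and 3.11 to 4.36 FPKM over 15 mice. Their 95% confidence intervals in the QDG comparison were −0.23 to 0.079 and −0.12 to 0.20 on the log2 scale. Mlst8, a subunit of both complexes, has 1 transcript listed for all mice, at 0 in Control mouse 1 and in Ang II + QDG mice 1 and 4, and at 1.76 to 5.48 FPKM in the other 12 mice. A second coding transcript, listed only for the infused mice, was at 4.53 and 3.99 FPKM in Ang II + QDG mice 1 and 4, so the gene was not at 0 there. The log2 fold change of Mlst8 in the QDG comparison was −0.82 without that transcript (adjusted p = 0.534) and 0.065 with it (adjusted p = 0.956). Akt1s1, the mTORC1 inhibitor that Akt phosphorylates, was at 31.1, 31.5, 29.7, 34.4 and 45.3 FPKM in Control, 36.4, 43.6, 29.4, 31.1 and 43.3 with Ang II alone and 30.95, 27.2, 25.9, 37.4 and 29.9 in Ang II + QDG. These groups overlapped throughout, and the log2 difference was 0.093 in Ang II vs. Control (adjusted p = 0.747) and −0.27 in the QDG comparison (SE 0.140, adjusted p = 0.374).

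Around the switch of mTORC1, Tsc2, the subunit of the TSC complex that turns Rheb off, was at 8.69, 11.4, 8.10, 12.5 and 12.4 FPKM in Control, 11.2, 13.3, 15.4, 13.5 and 15.7 with Ang II alone and 13.2, 15.3, 12.6, 9.66 and 13.5 FPKM in Ang II + QDG. The groups overlapped, and the log2 fold change was 0.36 in Ang II vs. Control (SE 0.139, adjusted p = 0.139) and −0.10 in the QDG comparison. The 4 retained-intron transcripts of Tsc2 summed to 1.54 ± 0.504 FPKM in Control and 3.68 ± 1.10 with Ang II. Its coding transcripts summed to 9.07 ± 2.12 and 10.1 ± 1.44, and these sums were not tested. With coding transcripts alone, Tsc2 changed by 0.060 in the QDG comparison. Its partner Tsc1 was low, at 0.420 to 2.39 FPKM in the 10 infused mice, while Control mouse 5 alone had 5.46 FPKM. Rheb, the GTPase that activates mTORC1, had the smallest spread within groups of all members tested. Its values were 40.6, 39.4, 37.6, 41.3 and 38.99 FPKM in Control, 41.8, 40.6, 44.8, 43.2 and 43.3 with Ang II alone and 37.5, 39.3, 41.8, 36.8 and 39.2 in Ang II + QDG. For Rheb the log2 fold change was 0.11 (SE 0.0476, adjusted p = 0.192) in Ang II vs. Control and −0.13 (SE 0.0476, adjusted p = 0.176) in the QDG comparison, so the 95% interval of the second difference ran only from −0.23 to −0.030.

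The S6 kinases are switched on by mTORC1 and phosphorylate a ribosomal protein, and neither passed the threshold. Rps6kb2 was at 6.67, 6.67, 5.10, 7.37 and 5.02 FPKM in Control, 8.65, 10.5, 9.87, 5.88 and 9.75 with Ang II alone and 10.1, 7.45, 7.34, 6.40 and 6.07 FPKM in Ang II + QDG. In Ang II, 4 of 5 mice lay above every Control mouse, and mouse 4 lay among them. Its log2 fold change was 0.46 (SE 0.157, adjusted p = 0.0992), and without Ang II mouse 4 the adjusted p was 0.0342. The sum combines transcripts whose fold changes had opposite signs. The protein-coding transcript was at 0.575, 6.25, 2.85, 1.75 and 2.46 FPKM in Control, against 2.30, 1.90, 0.949, 0.243 and 1.06 with Ang II. Its log2 fold change was −0.63 (SE 0.387, 95% CI −1.46 to 0.20, adjusted p = 0.470), so its sign is not settled. The sum of 2 transcripts annotated for nonsense-mediated decay was 3.33, 0.0373, 0.00, 0.0249 and 0.138 FPKM in Control, against 5.0003, 5.65, 5.66, 1.26 and 5.59 with Ang II. Rps6kb1, the better known S6 kinase, had 3.94 to 7.17 FPKM over 15 mice and a log2 fold change of 0.024 in Ang II vs. Control (95% CI −0.21 to 0.26). Exons of Tsc2 overlap Pkd1 and those of Rps6kb2 overlap Coro1b and Ptprcap on the other strand.

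**Figure D3:**
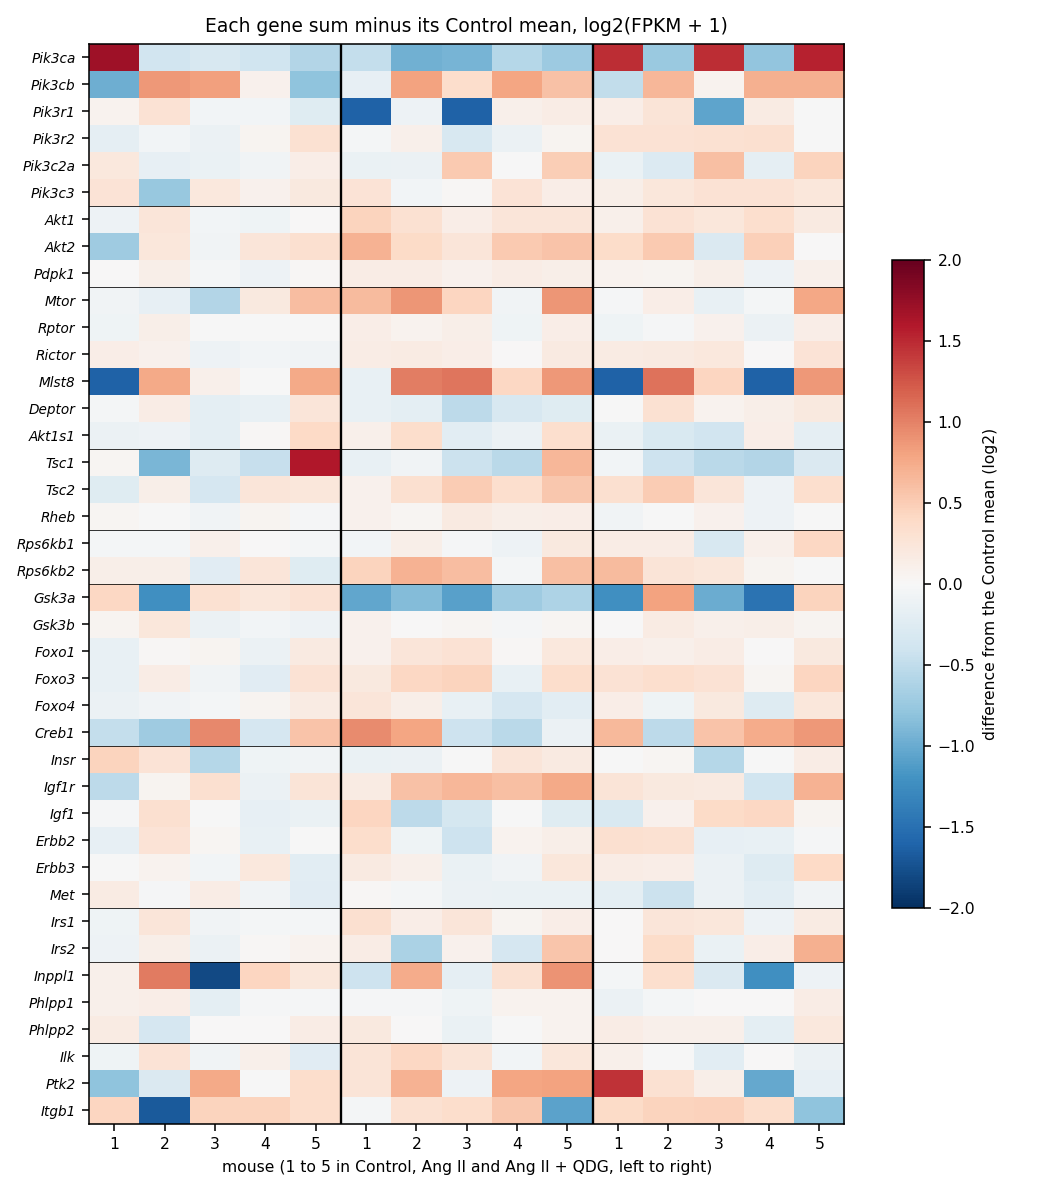
Each member's FPKM in each mouse as the difference of log2(FPKM + 1) from the gene's Control mean, for the 40 members listed in all files, with members in rows ordered by role and the 5 mice of Control, Ang II and Ang II + QDG in columns; red is higher and blue lower on a scale from −2 to 2. Single mice stand out in Pik3ca, Pik3r1, Mlst8, Tsc1, Gsk3a, Inppl1, Ptk2 and Itgb1, and no block of members separates 1 group from the others.

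Among the kinases and transcription factors that Akt restrains, Gsk3a held the only called transcript of any member. Gsk3a encodes glycogen synthase kinase 3-alpha (ENSMUSG00000057177, chromosome 7, 25228258 to 25237851, minus strand). The gene sum was 26.5, 7.82, 24.4, 23.04 and 24.2 FPKM in Control, 9.02, 10.3, 8.70, 11.6 and 12.4 with Ang II alone and 7.82, 35.1, 9.39, 6.43 and 27.1 in Ang II + QDG. Control mouse 2 and 3 of the 5 Ang II + QDG mice had values within or below the range of Ang II, and the log2 fold change in Ang II vs. Control was −0.87 (SE 0.429, adjusted p = 0.252), or −1.17 without Control mouse 2 (adjusted p = 0.0961). Most of this was the protein-coding transcript ENSMUST00000071739, with 25.5, 5.79, 23.6, 22.03 and 23.1 FPKM in Control, against 5.65, 6.998, 5.72, 8.29 and 8.51 with Ang II (log2 fold change −1.26, SE 0.501, adjusted p = 0.240 over 28812 transcripts).

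The other listed Gsk3a transcript, ENSMUST00000206654, is annotated as a retained-intron form of 1132 bases, and was the only member transcript past an adjusted p under 0.05 in Ang II vs. Control. It contains intron 9 of the 11-exon coding transcript, 278 bases at chr7:25229573-25229850 on the minus strand. The annotated sequence across its ends is shown because reads there tell the forms apart, with exon bases in lower case and intron bases in capitals (GENCODE release M21, GRCm38), and the intron has the usual GT start and AG end.
Gsk3a intron 9, start: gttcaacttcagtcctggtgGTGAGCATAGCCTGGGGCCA
Gsk3a intron 9, end: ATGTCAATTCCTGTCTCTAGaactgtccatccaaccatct

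The transcript with this intron was at 1.05, 2.03, 0.801, 1.01 and 1.16 FPKM in Control, 3.38, 3.29, 2.98, 3.32 and 3.90 with Ang II alone and 2.40, 2.76, 2.42, 1.22 and 1.83 FPKM in Ang II + QDG. Every Ang II mouse was above every Control mouse and above every Ang II + QDG mouse. This form had a log2 fold change of 1.01 in Ang II vs. Control (SE 0.167, adjusted p = 0.0210), −0.51 in the QDG comparison (SE 0.167, adjusted p = 0.253) and 0.50 between Ang II + QDG and Control (adjusted p = 0.347). Of the 67 member transcripts tested this was 1 called in Ang II vs. Control, beside 0.691% of all transcripts, and none was called in the QDG comparison by limma, beside 0.0972%. At an unadjusted p under 0.05 there were 9 and 7 member transcripts, beside 15.9% and 11.3% of all transcripts. The call was lost without Control mouse 1 or 3 or Ang II mouse 2 or 5. Exons of Gsk3a overlap 9130221H12Rik on the other strand.

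**Figure D4:**
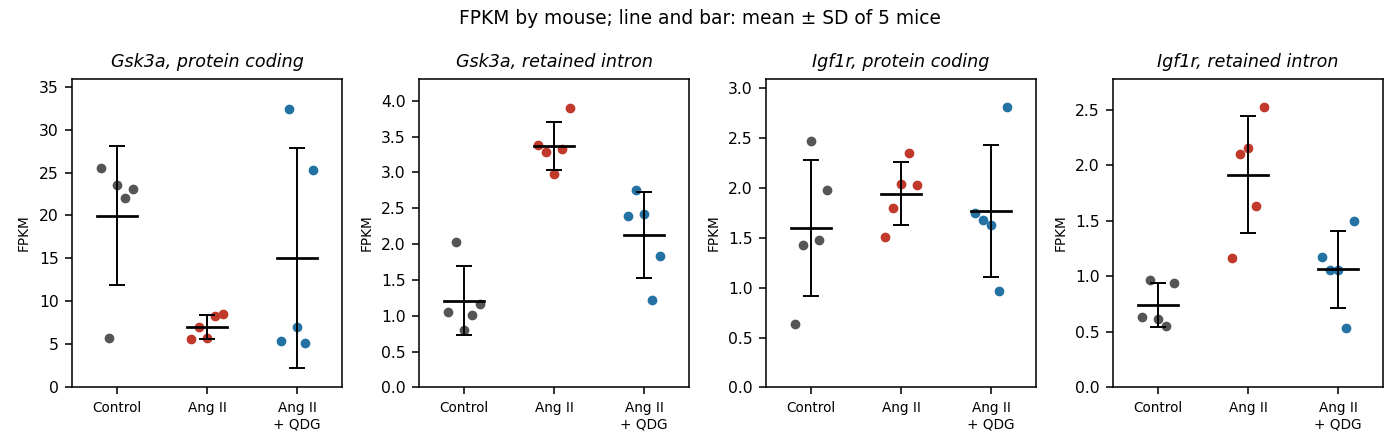
FPKM by mouse of the protein-coding and retained-intron transcripts of Gsk3a and Igf1r, with 5 mice per group as points and the mean ± SD as a line with a bar; each panel has its own axis from 0. For Gsk3a the coding transcript is at 5.65 to 8.51 FPKM in Ang II and above 22 FPKM in 4 of 5 Control mice, while the retained-intron transcript is at 2.98 to 3.90 FPKM in Ang II and 0.801 to 2.03 FPKM in Control.

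Gsk3b, the related kinase, did not show such swings. It was at 7.30 to 9.57 FPKM over 15 mice, with log2 fold changes of 0.030 (95% CI −0.12 to 0.18) and 0.060 (95% CI −0.091 to 0.21). The FoxO factors, which Akt keeps out of the nucleus, were led by Foxo3 at 12.3 to 20.2 FPKM and Foxo4 at 8.76 to 13.6 FPKM, with Foxo1 at 5.83 to 8.21 FPKM. In Ang II vs. Control their log2 fold changes were 0.25 for Foxo3, −0.070 for Foxo4 and 0.17 for Foxo1, none past the threshold (adjusted p = 0.247, 0.779 and 0.218). Creb1, a transcription factor that Akt can phosphorylate, was low and uneven, at 0.0662 to 2.37 FPKM in Control, 0.198 to 2.34 in Ang II and 0.207 to 2.16 in Ang II + QDG. Its log2 fold change in Ang II vs. Control was 0.13, and −0.49 with a coding transcript listed only for Control mice (adjusted p = 0.885 and 0.462).

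Among receptors and ligands at the top of the pathway, Igf1r, the receptor of insulin-like growth factor 1, had the largest difference in Ang II vs. Control. It was at 1.27, 2.39, 3.09, 2.03 and 2.93 FPKM in Control, 2.67, 3.90, 4.19, 3.98 and 4.55 with Ang II alone and 2.92, 2.74, 2.69, 1.49 and 4.31 FPKM in Ang II + QDG. In Ang II 4 of 5 mice lay above every Control mouse, and Ang II + QDG mouse 5 lay within their range. Igf1r had a log2 fold change of 0.56 (SE 0.199, adjusted p = 0.112) in Ang II vs. Control and −0.37 (SE 0.199, adjusted p = 0.379) in the QDG comparison. With the protein-coding transcript alone the first value was 0.22. The other listed Igf1r transcripts are 2 retained-intron forms, whose sum was 0.634, 0.964, 0.619, 0.552 and 0.942 FPKM in Control, 1.16, 2.10, 2.16, 1.63 and 2.52 with Ang II alone and 1.17, 1.06, 1.06, 0.531 and 1.50 FPKM in Ang II + QDG. Every Ang II mouse was above every Control mouse in that sum, which was singled out after its values were seen and was not tested.

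Insr, the insulin receptor, and Igf1 were at or near the limit of the filter, at 0.0372 to 1.10 and 0.225 to 1.38 FPKM, and were not tested. The receptor kinases Erbb2, Erbb3 and Met, which bind PI3K directly or through partners, were at 11.2 to 19.8, 18.2 to 29.1 and 21.9 to 33.7 FPKM. Most of the Erbb2 sum was a processed transcript, a form annotated as noncoding, at 10.6 to 18.9 FPKM in 14 mice. The coding transcript of Erbb2 was at 0.0228 to 1.59 FPKM in those mice, while Control mouse 1 had 13.6 FPKM of it and 0 of the other. Met, the receptor of hepatocyte growth factor, was at 30.1 ± 3.43 FPKM in Control, 28.3 ± 1.51 with Ang II alone and 25.98 ± 2.57 in Ang II + QDG, with a log2 fold change of −0.21 in Ang II + QDG vs. Control (SE 0.0843, adjusted p = 0.290). For Erbb2 and Erbb3 the 95% intervals in Ang II vs. Control were −0.30 to 0.32 and −0.20 to 0.32. The adaptors that link the insulin and IGF receptors to PI3K, Irs1 at 1.67 to 2.58 FPKM and Irs2 at 4.11 to 12.001 FPKM, had log2 fold changes of 0.18 and −0.038 in Ang II vs. Control and of −0.065 and 0.26 in the QDG comparison. Without Control mouse 2 the first value of Irs1 was 0.24 (adjusted p = 0.142).

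Among the phosphatases that oppose the pathway, Phlpp1 and Phlpp2, which remove a phosphate from Akt, were steady at 4.35 to 5.82 and 2.12 to 3.57 FPKM. The log2 fold change of Phlpp1 was 0.0013 (95% CI −0.16 to 0.17) in Ang II vs. Control and 0.0035 (95% CI −0.16 to 0.17) in the QDG comparison. Inppl1, a phosphatase of the PI3K lipid product, spread from 0.999 to 13.4 FPKM within Control, so its log2 fold change of 0.27 had a 95% interval of −0.71 to 1.25. Inpp4b, another lipid phosphatase, was listed only for the Ang II and Ang II + QDG mice, at 0 to 0.778 FPKM, and was not compared.

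Of the integrin-linked members, Ilk, a scaffold of focal adhesions, gave values in the QDG comparison that depended on which transcripts were summed. With those listed for all mice it was at 32.9, 42.8, 33.7, 37.9 and 30.1 FPKM in Control, 42.2, 47.2, 42.3, 33.7 and 41.5 with Ang II alone and 37.98, 34.9, 30.4, 35.4 and 32.5 FPKM in Ang II + QDG. In Ang II 4 of 5 mice lay above every Ang II + QDG mouse, and mouse 4 lay among them. Ilk had a log2 fold change of −0.26 in that comparison (SE 0.101, adjusted p = 0.208), beside 0.22 in Ang II vs. Control (SE 0.101, adjusted p = 0.217). With protein-coding transcripts alone, the value of Ilk in Ang II vs. Control was −0.10. Its main coding transcript ENSMUST00000033182 was at 14.3, 13.98, 14.8, 12.8 and 12.1 FPKM with Ang II alone and at 11.9, 13.4, 2.82, 5.01 and 3.14 FPKM in Ang II + QDG. Ang II + QDG mice 3, 4 and 5 were far below the other 7 of these mice, and the log2 fold change of this transcript was −1.04 (SE 0.328, adjusted p = 0.221). Another coding transcript, ENSMUST00000163389, listed only for the infused mice, was at 0 to 0.556 FPKM in Ang II but at 2.95, 0.173, 7.96, 15.4 and 8.73 FPKM in Ang II + QDG, and so was highest in the same 3 mice. With it the gene was at 40.9, 35.03, 38.4, 50.8 and 41.2 FPKM in Ang II + QDG, and the log2 fold change of Ilk in the QDG comparison was −0.0099 (SE 0.114, adjusted p = 0.977). Exons of Ilk overlap Rrp8 and Taf10 on the other strand.

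Itgb1, the integrin beta-1 subunit, was the member with the highest FPKM, at 58.3 to 86.8 FPKM in 12 mice, but it was at 17.9 FPKM in Control mouse 2, 28.1 FPKM in Ang II mouse 5 and 33.9 FPKM in Ang II + QDG mouse 5. Each group thus held 1 low mouse, and the 95% interval in Ang II vs. Control was −0.90 to 0.94. The log2 fold change there was 0.019, and −0.40 without Control mouse 2 (95% CI −1.08 to 0.28). Ptk2, focal adhesion kinase, ranged from 0.0622 to 4.87 FPKM. Over all 15 mice, the highest mouse exceeded the lowest over 4-fold in 10 of 38 members (26.3%), beside 26.3% of all genes tested, and the median within-group SD was 0.230 for members and 0.228 for all genes on the log2(FPKM + 1) scale.

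By annotated transcript type, the retained-intron transcripts of members were mostly higher in Ang II, as were those of other genes. Whether the libraries kept RNA without a poly(A) tail is not settled by the sources, which name rRNA depletion and, in the methods only, also poly(A) selection. In Ang II vs. Control 7 of the 8 tested retained-intron transcripts of members had a log2 fold change above 0, and the median of the 8 was 0.50. Over all 2757 retained-intron transcripts tested, 79.1% were above 0, with a median of 0.30. In the QDG comparison 0 of 8 were above 0, with a median of −0.26, beside 33.5% and a median of −0.13 over all. Of the 8, only that of Gsk3a passed an unadjusted p under 0.05 in each of these comparisons. The 54 tested protein-coding transcripts of members had medians of 0.10 and −0.023, beside 0.058 and −0.0064 over 15250 coding transcripts. All 4 tested member transcripts annotated for nonsense-mediated decay, which belong to Rps6kb2 and Ilk, were above 0 in Ang II vs. Control, beside 64.9% of 716. Those of Pik3c2a and Pik3c3 were not tested. The mitochondrial share fell where these medians were above 0 and rose where they were below 0, and its part in them was not tested.

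**Figure D5:**
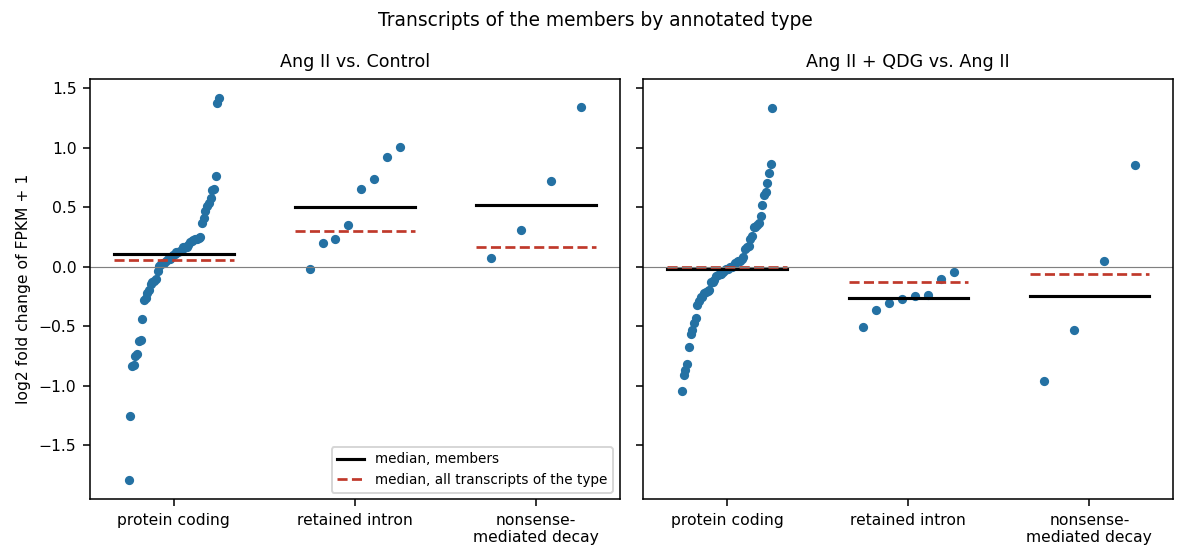
Log2 fold change of FPKM + 1 of each member transcript tested, by annotated type, with Ang II vs. Control on the left and the QDG comparison on the right; the solid line is the median over members and the dashed line the median over all transcripts of that type. Retained-intron transcripts of members have a median of 0.50 on the left and −0.26 on the right, each on the same side of 0 as the median over all.

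The same kinds of forms exist for other members. Retained introns of Ilk and Rps6kb2 are shown for comparison with that of Gsk3a, again with intron bases in capitals. They are intron 7 and intron 8 of the 13-exon Ilk coding transcript (chr7:105741234-105741373 and chr7:105741484-105741579, plus strand) and intron 9 of the 15-exon Rps6kb2 coding transcript (chr19:4158718-4158828, minus strand). The Rps6kb2 intron starts with GC in place of GT.
Ilk intron 7, start: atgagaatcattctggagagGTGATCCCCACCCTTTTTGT
Ilk intron 8, start: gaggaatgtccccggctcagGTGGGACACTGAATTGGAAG
Rps6kb2 intron 9, start: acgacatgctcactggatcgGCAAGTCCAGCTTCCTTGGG

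The transcript with Ilk intron 8 was at 4.22 ± 2.25 FPKM in Control, against 6.996 ± 0.631 with Ang II, a log2 fold change of 0.73 (SE 0.352, adjusted p = 0.328). The transcript with Ilk intron 7 had a log2 fold change of 0.35 and that with Rps6kb2 intron 9 of 0.23, neither past the threshold. Among coding transcripts, ENSMUST00000228412 of Tsc2 was at 3.49, 3.0005, 4.20, 1.29 and 2.73 FPKM in Control, against 1.48, 1.65, 0.805, 0.958 and 0.957 with Ang II. Control mouse 4 alone lay within the Ang II range, and the log2 fold change was −0.83 (SE 0.194, adjusted p = 0.0637). In Ang II + QDG it was at 0.949, 1.09, 1.08, 1.20 and 0.991 FPKM, −0.059 from Ang II on the log2 scale.

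Wider lists of pathway genes held 0 to 3 called genes each in Ang II vs. Control. Of 41 other PI3K and Akt genes tested, 2 (4.88%) were higher in Ang II vs. Control, beside 4.95% of all genes, and 0 lower, with a median log2 fold change of 0.078. They were Ptpn1, a phosphatase of the insulin receptor, which rose from 10.3 ± 1.03 to 14.6 ± 1.49 FPKM (log2 fold change 0.46, SE 0.0776, adjusted p = 0.00741), and the focal adhesion protein Vcl (0.42, adjusted p = 0.0487). Ptpn1 was at 9.65, 10.6, 9.86, 9.51 and 11.998 FPKM in Control, 12.6, 14.2, 16.1, 13.9 and 16.1 with Ang II alone and 12.1, 12.03, 12.4, 12.4 and 11.3 in Ang II + QDG. Its Ang II mice lay above all Control mice and all Ang II + QDG mice, with a log2 fold change of −0.25 (adjusted p = 0.112) in the QDG comparison. Of 31 growth factors, receptors and IGF binding proteins 2 (6.45%) were called, and the receptors Fgfr2 (1.36, adjusted p = 0.0369) and Pdgfrb (1.13, adjusted p = 0.0468) rose, from low levels and with Control mouse 3 listed at 0 for both. Pdgfrb is also in the list of smooth muscle and fibroblast markers.

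Of 26 genes downstream of mTORC1, 2 rose (7.69%) and 1 fell (3.85%) in Ang II vs. Control, beside 4.95% and 0.995% of all genes. Srebf2, a regulator of cholesterol synthesis, rose from 20.2 ± 1.78 to 27.2 ± 2.73 FPKM, which is 0.41 on the log2 scale (adjusted p = 0.0121), and Atf4, a regulator of amino acid metabolism, rose by 0.44 (adjusted p = 0.0488). Eif4b, a translation initiation factor that S6 kinase phosphorylates, was at 78.4, 90.9, 85.4, 78.9 and 115 FPKM in Control, 71.8, 71.6, 64.8, 73.3 and 74.2 with Ang II alone and 88.6, 99.8, 93.9, 95.1 and 96.5 FPKM in Ang II + QDG. All Ang II mice lay below all mice of the other groups. Its log2 fold change was −0.32 (SE 0.0882, adjusted p = 0.0495) in Ang II vs. Control and 0.41 (SE 0.0882, adjusted p = 0.0341) in the QDG comparison, the only called gene of these lists in the latter. The calls in Ang II vs. Control of Srebf2 and Ptpn1 were lost in 0 and 1 of 24 alternatives, and those of Fgfr2, Pdgfrb, Vcl, Atf4 and Eif4b in 12 to 20 of them. That of Eif4b in the QDG comparison was lost in 9, each with 1 mouse left out. No gene passed by limma among 35 amino acid and energy inputs of mTORC1 or 24 FoxO target genes in either comparison. At an unadjusted p under 0.05 there were 9 (25.7%) and 7 (20%) of the inputs and 4 (16.7%) and 3 (12.5%) of the FoxO targets, beside 22.7% and 16.4% of all genes, and the lists' median log2 fold changes in Ang II vs. Control were 0.12 and −0.026.

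Promoter sequences, running from 250 bases before a start into the gene, were at hand from RefSeq (GRCm38.p6) for 34 of the 41 members. They were searched on both strands for the FoxO motif GTAAACA and the CREB motif TGACGTCA, because both factors are members. A FoxO match occurred in 1 of 34 members, beside 4.05% of 27025 genes, and a CREB match in 0 of 34, beside 2.03%. The FoxO match lay in 1 of 2 promoters of Akt1 and started 161 bases before that start. The coding transcript listed for Akt1, on which its values above rest, starts at the other promoter, at 112674276, where no match was found. It is shown with the motif, here on the other strand, in capitals (chr12:112675019-112675065, minus strand), as a description of these letters only.
Akt1 promoter window: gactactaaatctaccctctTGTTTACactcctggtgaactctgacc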

How the data were processed

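Renal RNA of 15 mice was sequenced after rRNA depletion, per the labels. The study's methods also name a poly(A) selection kit after that step, which the labels do not, so whether transcripts without a poly(A) tail were kept is not settled here, and this bears on retained-intron values. The authors deposited 1 table per mouse with transcript identifiers and 1 value each. The unit is not named in the sources used here, and the values were read as FPKM as deposited, because values multiplied by transcript length were spaced, within 0.05 read, in equal steps that differed only by mouse, for nearly all values under 200 reads. The submitters' processing notes name mm10 and limma. The aligner, the assembler and the strand setting are not given in the sources used here. Transcripts were named with GENCODE release M21, which matched 31244 of 31301 Ensembl identifiers, and another 11141 shared transcripts, assembled by the authors, carry no gene name and were left out of gene sums. The part that reads on those transcripts could have in a member's value was not tested. Where exons overlap another gene on the other strand, as for 16 of the 41 members, their reads cannot be told apart without strand.

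The annotated transcripts listed in all 15 files were summed per gene. Groups came from the labels, 1 mouse per sample. Sums were tested on log2(FPKM + 1) with limma 3.58.1 in R 4.3.3 (moderated test with a trend, 1 mean per group, all 15 mice) for the 12366 genes that reached 1 FPKM in 5 or more mice, and p-values were adjusted by Benjamini-Hochberg over all genes. Single transcripts (28812) were tested alike. The pseudocount of 1 makes fold changes of low genes smaller. The shares were compared by an exact two-sided permutation test. On simulated data of the same size, 38% of log2 changes of 0.5 and 64% of log2 changes of 1 were called for Ang II vs. Control, and 36% and 80% for QDG added to Ang II. The members, lists and tests were chosen with earlier results of these data known. All members are named. Values in every mouse are given for called members, filled up to 6 per comparison by the smallest unadjusted p, and for called transcripts, filled up to 4. Alternatives were a pseudocount of 0.1, no filter, quantile normalization, median scaling, other transcript sets, 2 groups only, other variance priors and each mouse left out. The labels give no replicate numbers, and mice were numbered in accession order. The depths rest on the FPKM constant.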

Additional observations from a re-analysis of the deposited data

Results flagged for a closer look

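In groups of 5 mice, a highest or lowest value that lay far from the other 4 by Dixon's test was found in 14 of 120 groups of member values, over 13 genes. That is 11.7% of these groups, beside 9.02% of 41782 groups over all genes, where chance gives about 1 in 20. Control mouse 2 gave 5 of the 14. It had 7.82 FPKM for Gsk3a (other Control mice 23.0 to 26.5), 17.9 FPKM for Itgb1 (76.9 to 81.7), 4.35 FPKM for Pik3c3 (8.58 to 9.96; with a transcript listed only for Control mice it had 11.5), 2.40 FPKM for Irs1 (1.69 to 1.80) and 1.21 FPKM for Igf1 (0.575 to 0.756). Among the other Control mice, mouse 1 had 12.7 FPKM for Pik3ca (1.83 to 2.41) and mouse 5 had 5.46 FPKM for Tsc1 (0.131 to 1.20).

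Ang II mouse 4 had 3.46 FPKM for Rictor (other Ang II mice 3.84 to 3.99). Ang II + QDG mouse 5 had 33.9 FPKM for Itgb1 (other mice of that group 76.4 to 82.6), 20.7 FPKM for Mtor (10.5 to 13.0) and 13.6 FPKM for Pik3r2 (16.9 to 17.3). Ang II + QDG mouse 3 had 3.15 FPKM for Pik3r1 (7.56 to 9.26) and 0.0372 FPKM for Insr (0.526 to 0.705), and mouse 4 had 9.52 FPKM for Pdpk1 (10.8 to 11.2). The cause of these values was not tested.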

How the results depend on the processing

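Counts of called genes, members and member transcripts, the 11 members given in full, the called genes of the wider lists and the called transcript were recomputed with 1 choice changed at a time, transcripts only with another pseudocount, no filter, both scalings and each mouse left out. Of the other members, alternatives are given only beside their values. In Ang II vs. Control 735 genes were called, 612 higher and 123 lower. Quantile normalization gave 227 higher and 266 lower, and median scaling gave 472 in all, 201 higher and 271 lower. Protein-coding transcripts alone gave 408 and the 2 groups alone 456. In Ang II + QDG vs. Ang II 224 genes were called, and 58 with the 2 groups alone. In Ang II + QDG vs. Control 16 were called, 80 with all listed transcripts, 6 with protein-coding transcripts and 4 with the 2 groups alone. Leaving out 1 mouse gave 338 to 797, 53 to 249 and 0 to 110 genes in these comparisons, the last at 110 without Control mouse 2 and 0 without Control mouse 4.

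Both called members were at the edge. In Ang II vs. Control 0 members were called with a pseudocount of 0.1, no filter, protein-coding transcripts only, 2 groups only or no trend, and under quantile normalization or median scaling the 1 called member was Deptor and not Akt1. Over the alternatives other than a mouse left out, the adjusted p of Akt1 was 0.0463 to 0.159. In Ang II + QDG vs. Ang II 0 members were called with no filter, 2 groups only or no trend, and the adjusted p of Deptor was 0.0278 to 0.0674. Leaving out 1 mouse gave 0 to 1 called members in both. Member transcripts called in Ang II vs. Control were 2 under quantile normalization and median scaling, and 0 to 2 without 1 mouse. The count of members called in Ang II + QDG vs. Control was 0 under every alternative run. The cause of these changes was not tested.

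With protein-coding transcripts alone Ptpn1 had an adjusted p of 0.729 in Ang II vs. Control, and the range of Eif4b in the QDG comparison was 0.00492 to 0.0872. No called gene of the wider lists changed sign. Of 33 log2 fold changes of the members given in full, 25 kept their sign under all 24 alternatives. Signs changed with protein-coding transcripts for Ilk (−0.10) and Rps6kb2 (−0.63) in Ang II vs. Control, Rps6kb2 (−0.85) in Ang II + QDG vs. Control and Tsc2 (0.060) in Ang II + QDG vs. Ang II. They changed with all listed transcripts for Akt2 (0.069) in Ang II + QDG vs. Ang II and Ilk (0.21) in Ang II + QDG vs. Control, and with quantile normalization for Akt1 (0.0067) in Ang II + QDG vs. Ang II. The −0.26 of Ilk between these groups became −0.0099 (adjusted p = 0.977) with all listed transcripts. Without 1 mouse, Pik3r2 in Ang II vs. Control ran from −0.11 to 0.011 and Ilk in Ang II + QDG vs. Control from −0.098 to 0.025. No paired analysis was possible because the labels give no shared replicate numbers. With 5 mice per group, log2 changes of 0.5 were mostly not called in simulated data, so members under the threshold are not shown to be equal.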
